A study of Mus musculus with 9 samples.

Results

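The simple epithelial keratins Krt7, Krt8, Krt18, Krt19, Krt20 and Krt23 were followed across 3 sorted populations of mouse colon epithelium. The members were taken by their symbols, as keratins of simple epithelium, and all 6 were found among the 24421 gene symbols of the expression table. Each population is represented by 3 libraries. The mice were adult C57BL/6J, labelled female, and the labels give them no transgene or treatment. The goblet-enriched population (Epcam+, Cd44+, Kit+) came from the crypt bottom, the enterocyte-enriched population (Epcam+, Cd44-neg, Cd66a-high) from the crypt top, and the Lgr5-enriched population (Epcam+, Cd44+, Kit-neg) from the crypt bottom. These are enriched mixtures and not pure cell types. A difference in a transcript between such bulk samples cannot tell fewer cells of a type from less RNA per cell. The comparisons ask which keratins mark goblet cells, surface enterocytes and crypt-bottom stem and progenitor cells.

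Keratins build the intermediate filaments of epithelial cells. A filament forms only when an acidic type I keratin pairs with a basic type II keratin, so the 2 classes are needed together. In the members, Krt7 and Krt8 are type II, and Krt18, Krt19, Krt20 and Krt23 are type I. In simple epithelia such as the gut lining, Krt8 is the main type II keratin and pairs with Krt18, Krt19 or Krt20. Mice without Krt8 can develop colitis.

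The members lie in the 2 keratin gene clusters of the mouse genome (mm10, GENCODE annotation of the same build). Krt7 (chromosome 15, 101411043 to 101430313, plus strand) and Krt8 (chromosome 15, 101996698 to 102004482, minus strand) sit in the type II cluster. Krt18 (chromosome 15, 102028180 to 102032027, plus strand) is the type I gene that lies beside Krt8 at the end of that cluster. The starts of Krt8 and Krt18 point away from each other across 23698 bases with 0 annotated genes between them. Krt20 (chromosome 11, 99428403 to 99438150), Krt23 (99477974 to 99493137) and Krt19 (100140810 to 100148665) lie on the minus strand of the type I cluster on chromosome 11. Krt20 and Krt23 are adjacent, 39824 bases apart.

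RefSeq promoters (GRCm38.p6, 250 bases before to 50 after the RefSeq start) were found for 5 of the 6 members, Krt19 being the one not matched. Those of Krt8 and Krt18 are shown because these neighbours differed in their pattern, that of Krt7 because its level followed Krt18, and that of Krt20 because its range across populations was the widest of the 6. All are written 5′ to 3′ on the strand of the gene. Capitals mark any match, on either strand, to the letters searched: TATAAA for the TATA box, GGGCGG for the GC box bound by Sp1, CCACCC for the factor KLF4, GATAAG for the family of GATA factors, TTTATG for the factor CDX2 and TGANTCA for the factor AP-1. The windows are chr15:102004293-102004592 (minus strand) for Krt8, chr15:102027966-102028265 (plus) for Krt18, chr15:101412153-101412452 (plus) for Krt7 and chr11:99438104-99438403 (minus) for Krt20.
Krt8 promoter: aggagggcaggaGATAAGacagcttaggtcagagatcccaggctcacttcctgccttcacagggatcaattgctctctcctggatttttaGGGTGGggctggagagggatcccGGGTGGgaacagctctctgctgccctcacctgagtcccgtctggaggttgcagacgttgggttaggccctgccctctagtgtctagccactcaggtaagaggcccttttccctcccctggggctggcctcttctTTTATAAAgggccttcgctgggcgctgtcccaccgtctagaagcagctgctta
Krt18 promoter: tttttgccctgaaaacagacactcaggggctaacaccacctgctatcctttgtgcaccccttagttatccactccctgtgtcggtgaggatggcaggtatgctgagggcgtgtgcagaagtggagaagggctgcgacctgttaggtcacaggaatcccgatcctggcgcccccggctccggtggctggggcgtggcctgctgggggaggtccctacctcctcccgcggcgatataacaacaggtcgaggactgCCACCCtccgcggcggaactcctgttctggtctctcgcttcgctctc
Krt7 promoter: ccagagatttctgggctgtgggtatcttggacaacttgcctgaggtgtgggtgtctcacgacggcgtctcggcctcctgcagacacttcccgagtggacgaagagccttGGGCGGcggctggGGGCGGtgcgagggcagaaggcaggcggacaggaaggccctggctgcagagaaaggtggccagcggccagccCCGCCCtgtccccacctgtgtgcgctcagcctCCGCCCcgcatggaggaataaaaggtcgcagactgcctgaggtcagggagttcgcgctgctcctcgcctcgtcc
Krt20 promoter: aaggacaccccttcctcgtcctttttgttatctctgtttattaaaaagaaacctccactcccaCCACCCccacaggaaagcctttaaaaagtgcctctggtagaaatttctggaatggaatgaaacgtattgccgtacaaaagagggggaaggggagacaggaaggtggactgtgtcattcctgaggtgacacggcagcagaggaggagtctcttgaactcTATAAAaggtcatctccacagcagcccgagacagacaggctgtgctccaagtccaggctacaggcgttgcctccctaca

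The Krt8 window held TATAAA across the RefSeq start itself, from position -1 to 4, overlapping its own reverse complement. It also held CCACCC on the reverse strand at 2 places and GATAAG once. The Krt18 window held CCACCC once, just after the start, and none of the other letters searched. The Krt7 window held GGGCGG at 4 places, 2 on each strand, and had a GC content of 66.3% against a median of 52.7% over all 32851 promoters. The Krt20 window held TATAAA from 29 bases before the start (position -29) and CCACCC once. Among all promoters of this length, 13.6% held TATAAA, 35.7% GGGCGG, 31.5% CCACCC, 7.44% GATAAG, 11.9% TTTATG and 7.81% TGANTCA. These matches describe letters and not bound sites.

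Levels are in TPM (transcripts per 1000000, corrected for transcript length). Reads recovered from the deposited values came to 11.2 to 26.8 M per library (M stands for 1000000), so that 1 read on a transcript of 1 kb equals 0.0958 to 0.208 TPM. The summed markers of each sort were highest in the population sorted for them, though single goblet markers were not. The 10 goblet markers summed to 49075 to 65032 TPM in goblet-enriched libraries, 15547 to 23177 in enterocyte-enriched and 1569 to 1765 in Lgr5-enriched libraries. In goblet-enriched against enterocyte-enriched cells 6 of them were higher, among them Agr2, Spink4 and Muc2, which made up most of the goblet-enriched sum. Clca1 and Fcgbp did not pass the limma test (adjusted p = 0.762 and 0.582). Zg16 and Tff3 were lower in goblet-enriched than in enterocyte-enriched cells, Zg16 at 345 against 5481 TPM and Tff3 at 1120 against 1918 TPM (limma adjusted p = 3.31e-04 and 0.0315). The 10 enterocyte markers summed to 1557 to 2743, 19843 to 41984 and 2312 to 2648 TPM in the same order, and the 8 Lgr5 stem cell markers to 493 to 547, 121 to 192 and 1125 to 1299 TPM. The library labelled enterocyte-enriched replicate 1 held Xist at 0.128 TPM, where the other 8 held 110 TPM or more, and 4 Y-linked genes summing to 139 TPM, where the others had at most 0.325 TPM. Its sex-linked transcripts go against its label, so results are also given without it. The 8 leukocyte markers summed to 247 and 145 TPM in enterocyte-enriched replicates 1 and 2, mostly Lyz2, and to 12.4 to 25.3 TPM in the other libraries. Lgr5-enriched replicate 1 held pre-ribosomal Rn45s at 49046 TPM, where the other libraries had 2356 to 6009 TPM.

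Krt8 and Krt19 were the most abundant keratins at the crypt top. Krt8, the main type II keratin, stood at 1877, 3048 and 2607 TPM in goblet-enriched replicates 1 to 3. It stood at 10289, 9862 and 9089 TPM in enterocyte-enriched replicates, against 2513, 4712 and 3968 TPM in Lgr5-enriched replicates. The enterocyte-enriched libraries lay above all others, while goblet-enriched and Lgr5-enriched values overlapped. Krt8 was 2.61-fold higher in enterocyte-enriched than in Lgr5-enriched cells (log2 fold change of TPM + 1 of 1.43, SE 0.27, limma adjusted p = 0.00244). That call ended under quantile normalization (0.91, adjusted p = 0.101; range over the alternatives 6.87e-04 to 0.101). Krt8 was 3.88-fold lower in goblet-enriched than in enterocyte-enriched cells (log2 fold change -1.98, SE 0.27, adjusted p = 5.15e-04). Between the goblet-enriched and Lgr5-enriched populations Krt8 did not pass the test (2511 against 3731 TPM, log2 fold change -0.55, SE 0.27, adjusted p = 0.144). It was called lower without Lgr5-enriched replicate 1 (-0.81, adjusted p = 0.0372) and without replicate 1 of all populations (-0.62, adjusted p = 0.0156; range 0.0156 to 0.386).

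Krt19, a type I keratin of simple epithelia, stood at 1334, 1556 and 1444 TPM in goblet-enriched replicates and at 9249, 7751 and 7484 TPM in enterocyte-enriched replicates. In Lgr5-enriched replicates it stood at 2131, 3616 and 2934 TPM. No 2 populations overlapped, and their order was enterocyte-enriched, Lgr5-enriched, goblet-enriched. Enterocyte-enriched cells were 2.82-fold higher than Lgr5-enriched cells (adjusted p from limma = 6.11e-04; log2 fold change 1.52, SE 0.22). Krt19 fell in goblet-enriched cells to 1445 ± 111 TPM, against 2894 ± 743 TPM in Lgr5-enriched cells (SD, n = 3 each; log2 fold change -0.97, SE 0.22, limma adjusted p = 0.00870). The gap between goblet-enriched and enterocyte-enriched cells was 5.65-fold (log2 fold change -2.49, SE 0.22, adjusted p = 6.27e-05). All 3 calls held in each of the 17 alternatives.

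Krt20, a type I keratin known from differentiated cells of the gut, had the widest range of the 6 members. In goblet-enriched replicates it stood at 1.91, 5.01 and 35.6 TPM, from 21, 51 and 355 reads. In enterocyte-enriched replicates it stood at 1594, 421 and 623 TPM, against 18.6, 8.02 and 13.9 TPM in Lgr5-enriched replicates. Every enterocyte-enriched library lay far above the other 6, whose populations overlapped. Krt20 averaged 65.2-fold higher in enterocyte-enriched than in Lgr5-enriched cells (adjusted p from limma = 7.01e-04; log2 fold change 5.76, SE 0.84). It was 38.7-fold higher without enterocyte-enriched replicate 1. In goblet-enriched cells it was 62.0-fold lower than in enterocyte-enriched cells (log2 fold change -6.44, SE 0.84, adjusted p = 4.09e-04).

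That last fold leaned on single libraries. It was 254-fold without goblet-enriched replicate 3 and 36.8-fold without enterocyte-enriched replicate 1, and the log2 fold change was -5.66 without goblet-enriched replicate 1. Goblet-enriched replicate 3 also carried more enterocyte markers, with a mean log2(TPM + 1) over the 10 markers of 5.21, against 3.14 and 3.30 in the other goblet-enriched libraries. The enterocyte-enriched library with the highest Krt20 likewise had the highest enterocyte markers, 9.63 against 8.58 and 8.53. The part of these markers in the Krt20 values was not tested. Between goblet-enriched and Lgr5-enriched cells Krt20 did not pass the test (14.2 ± 18.6 against 13.5 ± 5.28 TPM, limma adjusted p = 0.559; range 0.0598 to 0.934). Without goblet-enriched replicate 3 its goblet-enriched mean was 3.46 TPM, 3.90-fold below the Lgr5-enriched mean (adjusted p = 0.0598).

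**Figure D1:**
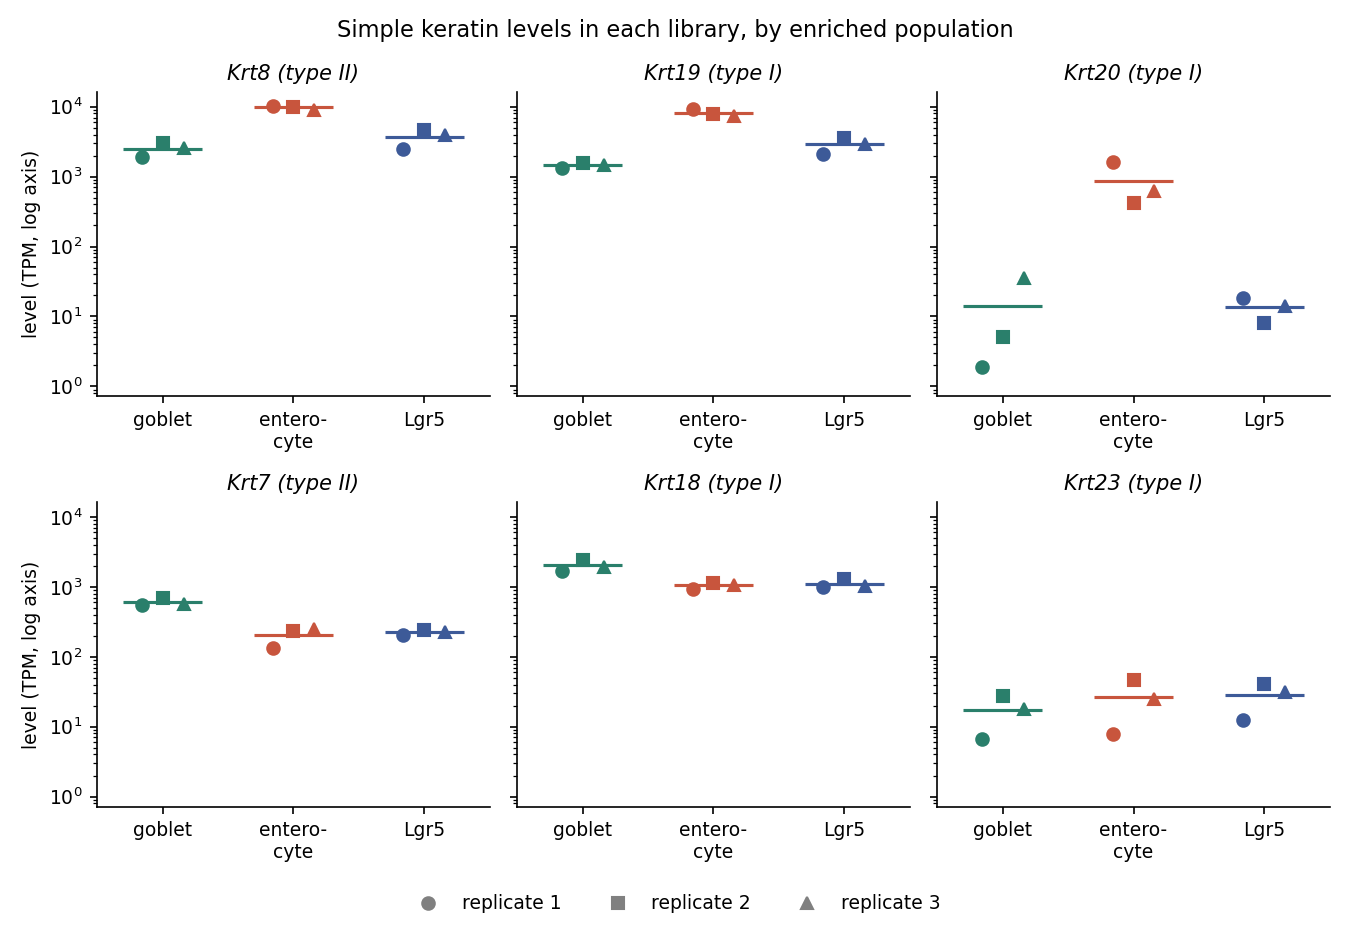
Level of each simple keratin (TPM, log axis) in the 9 libraries, with goblet-enriched, enterocyte-enriched and Lgr5-enriched populations from left to right. Points are libraries, shaped by replicate number, and bars are the means of 3. Krt8, Krt19 and Krt20 peak in enterocyte-enriched libraries, Krt7 and Krt18 in goblet-enriched libraries, and replicate 1 is the lowest for Krt23 in each population.

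Krt7 and Krt18 had another order, with goblet-enriched cells on top. Krt7, a type II keratin best known from ductal and glandular epithelia, stood at 556, 683 and 568 TPM in goblet-enriched replicates. It stood at 132, 230 and 250 TPM in enterocyte-enriched and at 203, 242 and 224 TPM in Lgr5-enriched replicates. The goblet-enriched libraries lay above all 6 others, and the other populations overlapped. The goblet-enriched mean was 2.70-fold the Lgr5-enriched mean (adjusted p from limma = 0.00182; log2 fold change 1.43, SE 0.23) and 2.95-fold the enterocyte-enriched mean (1.61, SE 0.23, adjusted p = 6.04e-04). Enterocyte-enriched and Lgr5-enriched means of 204 ± 63.3 and 223 ± 19.5 TPM (SD, n = 3 each) did not pass the test (limma adjusted p = 0.535; range 0.253 to 0.840), and the sign of that difference changed with the scaling.

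Krt18, the classical type I partner of Krt8, stood at 1710, 2437 and 1953 TPM in goblet-enriched replicates. It stood at 930, 1150 and 1072 TPM in enterocyte-enriched and at 981, 1295 and 1037 TPM in Lgr5-enriched replicates. Every goblet-enriched library was above the highest of the other 6, by a smaller margin than for Krt7. Krt18 was 1.84-fold higher in goblet-enriched than in Lgr5-enriched cells (adjusted p from limma = 0.00643; log2 fold change 0.88, SE 0.18) and 1.94-fold higher than in enterocyte-enriched cells (0.94, SE 0.18, adjusted p = 0.00311). Both held in all 17 alternatives, as did both Krt7 calls. Enterocyte-enriched and Lgr5-enriched means of 1051 and 1104 TPM did not pass the test (log2 fold change -0.07, SE 0.18, adjusted p = 0.780; range 0.116 to 0.945), again with a sign that turned under median-of-ratios scaling (0.35).

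Summed goblet markers were higher in every enterocyte-enriched library than in any Lgr5-enriched one, as given above. Among these markers Zg16 was the highest in enterocyte-enriched cells, at 5481 TPM against 345 TPM in goblet-enriched cells. The Krt7 and Krt18 values of enterocyte-enriched and Lgr5-enriched libraries overlapped. The part of goblet cells in the Krt7 and Krt18 values was not tested. Tuft cells, a rare type known for strong Krt18, had 7 markers in the table, which summed to 7.94, 17.6 and 52.8 TPM in goblet-enriched replicates 1 to 3, to 3.10 to 7.10 TPM in enterocyte-enriched and to 1.98 to 5.85 TPM in Lgr5-enriched libraries. Among goblet-enriched libraries the tuft markers were highest in replicate 3 and Krt18 in replicate 2, with 3 libraries to compare. The part of tuft cells in the Krt18 difference was not tested.

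Krt23, a type I keratin of lower abundance that is induced by histone deacetylase inhibitors in human cancer cells, varied more between replicates than between populations. It stood at 6.61, 27.7 and 18.0 TPM in goblet-enriched replicates 1 to 3, at 7.84, 46.7 and 24.9 TPM in enterocyte-enriched replicates and at 12.4, 41.1 and 30.9 TPM in Lgr5-enriched replicates. In each population replicate 1 was the lowest and replicate 2 the highest. The values rest on 58 to 496 reads. No comparison passed the limma test. The adjusted p was 0.453 between goblet-enriched and Lgr5-enriched cells, 0.791 between enterocyte-enriched and Lgr5-enriched cells and 0.609 between goblet-enriched and enterocyte-enriched cells. With the replicate number as a block, the goblet-enriched value was called lower than the Lgr5-enriched value (log2 fold change -0.71, SE 0.15, adjusted p = 0.00786) and lower than the enterocyte-enriched value (-0.47, SE 0.15, adjusted p = 0.0343). Goblet-enriched Krt23 was the lowest of the 3 populations within every replicate number. Without the library labelled enterocyte-enriched replicate 2 the goblet-enriched mean was 1.06-fold the enterocyte-enriched mean, and the enterocyte-enriched mean was 0.581 times the Lgr5-enriched mean.

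Read as counts, 2 members rose (Krt7 and Krt18) and 1 fell (Krt19) in goblet-enriched against Lgr5-enriched cells. In that comparison 34.3% of the 12888 tested genes were called, 10.7% higher and 23.6% lower. In enterocyte-enriched against Lgr5-enriched cells 3 members rose (Krt8, Krt19 and Krt20) and 0 fell, where 49.6% of all genes were called, 12.0% higher and 37.6% lower. In goblet-enriched against enterocyte-enriched cells 2 rose (Krt7 and Krt18) and 3 fell (Krt8, Krt19 and Krt20), where 44.1% of all genes were called, 28.2% higher and 15.9% lower. With 6 members, these counts are not set apart from the backgrounds by any test. All 6 members passed the filter on low values.

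The medians of the log2 fold change over the members were -0.62, 0.68 and -1.22 in these 3 comparisons, against -0.26, -0.35 and 0.20 over all tested genes. Median-of-ratios scaling moved the median of all genes to -0.05, 0.02 and 0.04. Under it 1839 genes were called higher and 1549 lower, against 1384 and 3039 in TPM, for goblet-enriched against Lgr5-enriched cells. For enterocyte-enriched against Lgr5-enriched cells these were 3033 and 2534 against 1549 and 4847, and for goblet-enriched against enterocyte-enriched cells 2553 and 2751 against 3633 and 2054. The counts of members called were 3, 3 and 5 under that scaling too, and also without the library labelled enterocyte-enriched replicate 1. Without that library the called members had limma adjusted p-values of 0.00198 to 0.00736 in enterocyte-enriched against Lgr5-enriched cells and 2.55e-04 to 0.00977 in goblet-enriched against enterocyte-enriched cells. Without Lgr5-enriched replicate 3 the first comparison called 2660 genes in place of 4423, and 3 of the members.

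**Figure D2:**
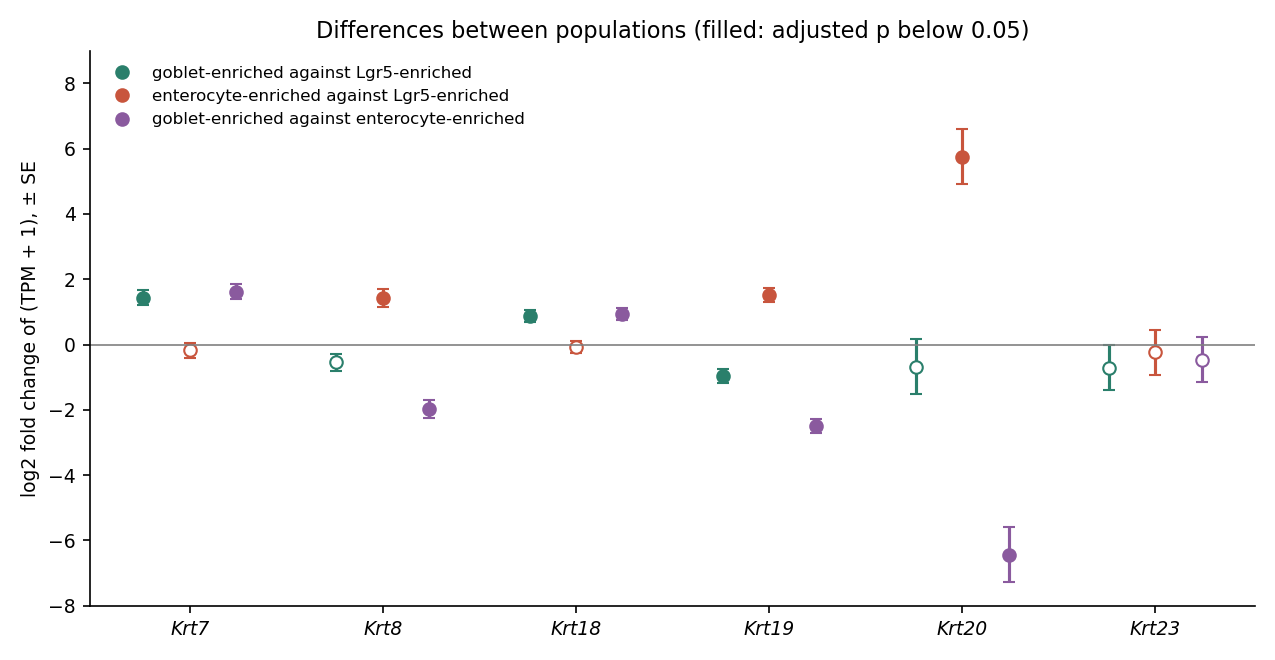
Log2 fold change of TPM + 1, with its SE, for each simple keratin in the 3 comparisons, the first-named population over the second. Filled points passed the limma test at an adjusted p below 0.05. Krt7 and Krt18 are above 0 wherever goblet-enriched cells come first, and Krt20 has the widest changes, 5.76 and -6.44.

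The make-up of the keratin pool differed between populations, as a share of the summed TPM of the 6 members. Krt8 made up 37.6% ± 2.94 in goblet-enriched, 48.7% ± 2.19 in enterocyte-enriched and 46.3% ± 2.94 in Lgr5-enriched libraries (SD, n = 3 each). Krt19 made up 22.1% ± 2.14, 40.6% ± 0.943 and 36.2% ± 0.391 in the same order. Krt18 made up 30.7% ± 1.06, 5.29% ± 0.960 and 14.1% ± 2.26, and Krt7 9.17% ± 0.840, 1.04% ± 0.397 and 2.88% ± 0.527. Krt18 was the leading type I keratin in every goblet-enriched library, and Krt19 in every other library. Krt20 reached 4.23% ± 2.62 in enterocyte-enriched libraries, and was at most 0.537% in any other library, while Krt23 made up at most 0.415% in any library. These shares are descriptions and were given no test, because they are scores over chosen members.

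**Figure D3:**
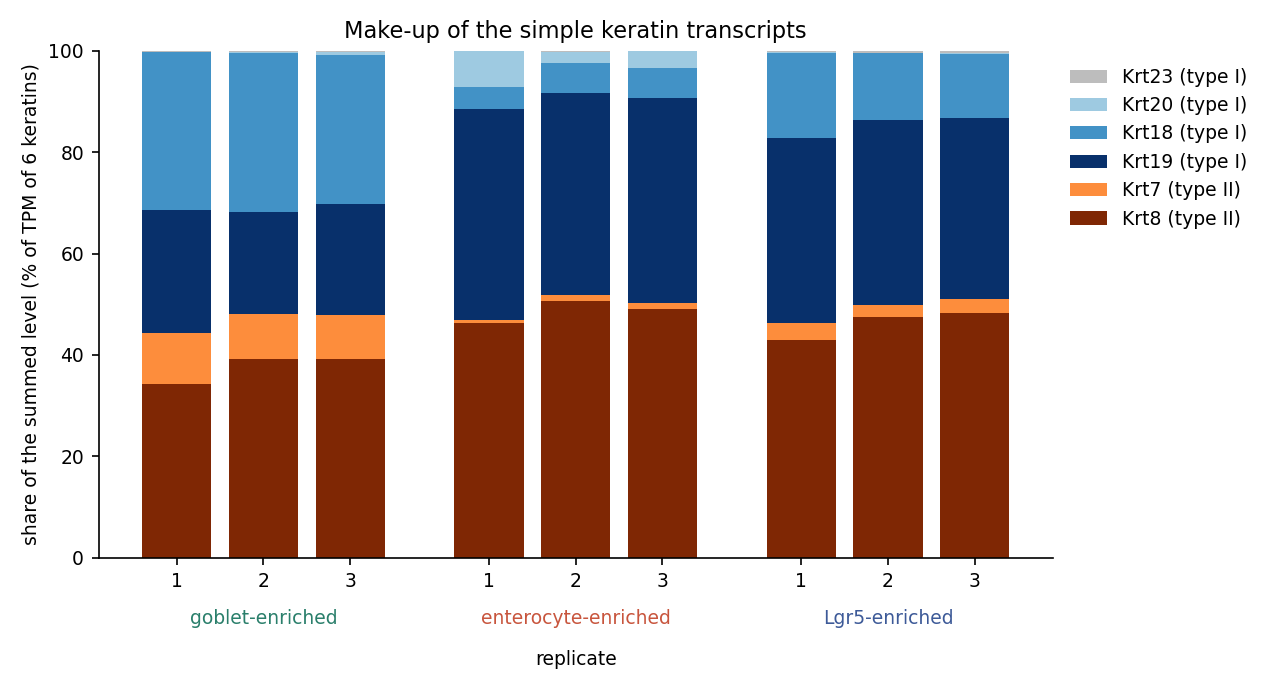
Share of each member in the summed TPM of the 6 simple keratins (percent), 1 bar per library, grouped by population. Type II keratins are in brown and orange, type I in blue and grey. The border between the classes stays near the middle of each bar, while Krt18 holds 29.5 to 31.4% in goblet-enriched and 4.19 to 5.91% in enterocyte-enriched libraries.

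The summed level of the members was 5486 to 7758 TPM in goblet-enriched libraries, 18543 to 22202 TPM in enterocyte-enriched libraries and 5859 to 9915 TPM in Lgr5-enriched libraries. This was 0.662% ± 0.114, 2.01% ± 0.190 and 0.799% ± 0.204 of all transcripts (SD, n = 3 each). The enterocyte-enriched libraries did not overlap the others, while the other populations overlapped each other.

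Although the level and the make-up differed, summed type I and summed type II keratins were close in TPM in every library. The ratio of type I to type II was 1.14 ± 0.0992 in goblet-enriched, 1.01 ± 0.104 in enterocyte-enriched and 1.04 ± 0.105 in Lgr5-enriched libraries (SD, n = 3 each), with a range over the 9 libraries of 0.928 to 1.25. The ranges of the populations overlapped, and replicate 1 had the highest ratio in each. Over all keratin rows of the table in place of the 6 members, the ratios were 1.13, 1.03 and 1.05. The ratio of Krt18 to Krt8 moved widely in contrast: it was 0.820 ± 0.0827 in goblet-enriched, 0.108 ± 0.0156 in enterocyte-enriched and 0.309 ± 0.0710 in Lgr5-enriched libraries, with no overlap. Krt19 stood at 0.719 ± 0.0729, 7.89 ± 1.79 and 2.60 ± 0.370 times Krt18 in the same order. Krt7 stood at 0.246 ± 0.0434, 0.0212 ± 0.00757 and 0.0629 ± 0.0157 times Krt8.

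**Figure D4:**
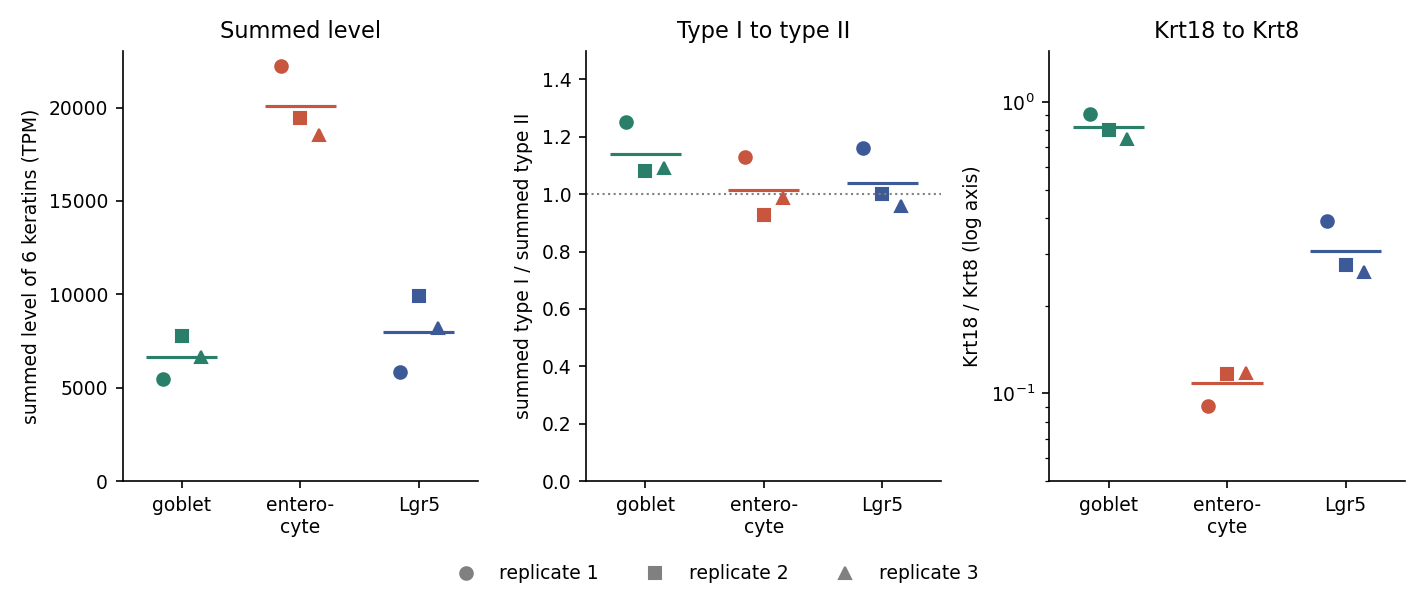
Summed TPM of the 6 simple keratins (left), ratio of summed type I to summed type II (middle, dotted line at 1) and ratio of Krt18 to Krt8 (right, log axis) in each library, by population. Points are libraries, shaped by replicate number, and bars are the means of 3. The type ratio lies between 0.928 and 1.25 in all 9 libraries, while Krt18 to Krt8 ranges from 0.0903 to 0.911.

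Likeness between members was described by Pearson's r of log2(TPM + 1) over the 9 libraries. These libraries form 3 populations, so r mostly shows the order of the population means and carries no test. Krt8 and Krt19 were nearest to each other (r = 0.978), as were Krt7 and Krt18 (0.958), so each of these pairs joins a type II with a type I keratin. Krt20 was nearest to Krt8 (0.888), and Krt23 was near none (at most 0.333, with Krt8). The neighbours Krt8 and Krt18 had an r of -0.58.

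Over all 12888 tested genes, the 3 most like Krt20 were Prss30 (r = 0.996), Ceacam20 (0.994) and Aqp8 (0.994), and Aqp8, a water channel, is a known marker of surface colonocytes. Ceacam20 averaged 2.33 TPM in goblet-enriched, 167 in enterocyte-enriched and 2.38 in Lgr5-enriched cells, and Aqp8 averaged 3.06, 322 and 4.04 TPM. The most like Krt19 were Agpat4, Glrx and Aph1a (0.996 each). The most like Krt8 were Mettl7a2 (0.996), Ethe1 (0.993), a mitochondrial sulfide-oxidizing enzyme, and Clptm1 (0.993). Ethe1 averaged 145, 826 and 226 TPM in goblet-enriched, enterocyte-enriched and Lgr5-enriched cells. The most like Krt7 were Tbc1d8 (0.992) and Tmem159 (0.989), and the most like Krt18 were Pcdhgc4 (0.979), Ccnd3 (0.977), which encodes cyclin D3, and Arhgef40 (0.977). For Krt23 they were Unc45a (0.966), Cln3 (0.963) and Pdxk (0.950).

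Beyond the simple keratins, keratin transcripts were rare. The table held 52 keratin rows, 18 of them at 0 in all libraries, and the members made up 99.1 to 99.3% of the summed keratin TPM of a goblet-enriched library, 98.7 to 99.8% of an enterocyte-enriched and 98.8 to 99.4% of an Lgr5-enriched one. Krt5, the basal keratin of stratified epithelium, was at 0 in all 9 libraries, and Trp63, the master factor of that tissue, averaged 0, 0 and 0.0203 TPM in goblet-enriched, enterocyte-enriched and Lgr5-enriched cells. Of the 12 squamous markers, 2 to 6 were at 0 in each library. Their sums were 44.0 to 199 TPM in goblet-enriched, 73.9 to 694 TPM in enterocyte-enriched and 62.8 to 257 TPM in Lgr5-enriched libraries, most of it Sprr1a in every library, which averaged 128, 305 and 164 TPM.

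Of 27 listed keratins of stratified epithelium and hair, 7 were tested. The list leaves out Krt83 and Krt85, both tested and both higher in goblet-enriched than in Lgr5-enriched cells, as given below. In goblet-enriched against Lgr5-enriched cells 0 rose and 3 fell, in enterocyte-enriched against Lgr5-enriched cells 1 rose and 1 fell, and in goblet-enriched against enterocyte-enriched cells 1 rose and 3 fell. Over all tested genes 34.3%, 49.6% and 44.1% were called in these comparisons. The counts of this list and of those below were given no test against these shares. Krt84, a hair type II keratin, averaged 0.372 ± 0.324 TPM in goblet-enriched, 6.30 ± 1.34 in enterocyte-enriched and 1.99 ± 0.231 in Lgr5-enriched cells. It was called in all 3 comparisons. Goblet-enriched cells were lower than Lgr5-enriched (log2 fold change -1.15, limma adjusted p = 0.00706) and than enterocyte-enriched cells (-2.42, 1.14e-04). Enterocyte-enriched cells were higher than Lgr5-enriched cells (1.27, 0.00257), a call that ended with a pseudocount of 0.1 (0.0792). Krt14 averaged 0.0380 ± 0.0659, 2.50 ± 0.782 and 1.36 ± 0.475 TPM. It was lower in goblet-enriched cells than in both others (limma adjusted p = 0.00687 against Lgr5-enriched and 6.26e-04 against enterocyte-enriched cells). These goblet-enriched values lie near the floor. In goblet-enriched replicates Krt14 stood at 0, 0.114 and 0 TPM and Krt84 at 0, 0.590 and 0.527 TPM. In these libraries 1 read on a transcript of 1 kb equals 0.175 to 0.194 TPM. Krt80 averaged 0.811 ± 0.338, 1.67 ± 1.11 and 4.37 ± 1.86 TPM and was lower in goblet-enriched than in Lgr5-enriched cells (adjusted p = 0.00862).

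Without a filter on low values, 5 genes of this list were called in each comparison with Lgr5-enriched cells. In enterocyte-enriched against Lgr5-enriched cells 1 was called without enterocyte-enriched replicate 3 or Lgr5-enriched replicate 2, and in goblet-enriched against enterocyte-enriched cells 2 were called without goblet-enriched replicate 1 or enterocyte-enriched replicate 3. The split of the list in enterocyte-enriched against Lgr5-enriched cells changed with the scaling: 2 rose and 0 fell with median-of-ratios scaling, and 3 rose and 0 fell with quantile normalization or without enterocyte-enriched replicate 1. Without Lgr5-enriched replicate 3, 1 rose and 2 fell. Over all tested genes in that comparison 3033 rose and 2534 fell with median-of-ratios scaling, and 2424 and 2887 with quantile normalization. In goblet-enriched against enterocyte-enriched cells 0 of the list rose and 3 fell with either scaling, and also without goblet-enriched replicate 2 or enterocyte-enriched replicate 1. With the replicate number as a block, Krt14 was called higher in enterocyte-enriched than in Lgr5-enriched cells (log2 fold change 0.56, SE 0.19, limma adjusted p = 0.0366, against 0.0839 with no block). Krt80 in enterocyte-enriched against Lgr5-enriched cells (adjusted p = 0.0303) lost its call in 8 of the 17 alternatives, among them leaving out enterocyte-enriched replicate 1 or 3 or Lgr5-enriched replicate 2. Krt15 in goblet-enriched against enterocyte-enriched cells (3.66 ± 1.32 against 1.11 ± 0.548 TPM, adjusted p = 0.0345) lost it in 9, among them leaving out replicate 1 or 2 of the goblet-enriched or replicate 1 or 3 of the enterocyte-enriched population. Krt36, the most abundant keratin of the list, stood at 6.85, 15.6 and 13.7 TPM in goblet-enriched replicates, at 18.5, 226 and 113 TPM in enterocyte-enriched and at 18.7, 83.9 and 32.1 TPM in Lgr5-enriched replicates. Within each population replicate 1 was its lowest value, as for Krt23. It was lower in goblet-enriched than in enterocyte-enriched cells (log2 fold change -2.68, SE 0.84, limma adjusted p = 0.0286; range 0.00151 to 0.0909). That call was lost in 6 alternatives, among them leaving out replicate 1 or 3 of the goblet-enriched or replicate 2 or 3 of the enterocyte-enriched population. Krt36 did not pass the test in goblet-enriched against Lgr5-enriched cells (-1.62, SE 0.84, limma adjusted p = 0.164; range 0.0168 to 0.412), although the goblet-enriched value was the lower one in each same-numbered pair. With the replicate number as a block it was called lower (SE 0.43, adjusted p = 0.0168), as it was without enterocyte-enriched replicate 1 (0.0481). In enterocyte-enriched against Lgr5-enriched cells it did not pass either (1.06, SE 0.84, adjusted p = 0.319; range 0.0258 to 0.776), nor with the block (0.0615), but was called higher without enterocyte-enriched replicate 1 (2.08, SE 0.60, adjusted p = 0.0258).

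3 further keratins were singled out after their values were seen. Krt83 lies in the type II cluster between Krt7 and Krt8 (chromosome 15, 101485130 to 101491512, minus strand). It stood at 21.8, 22.7 and 15.5 TPM in goblet-enriched replicates, at 1.25, 3.49 and 3.72 TPM in enterocyte-enriched and at 7.87, 7.57 and 6.51 TPM in Lgr5-enriched replicates. Krt85, a hair keratin, averaged 6.89 ± 1.36, 0.747 ± 0.395 and 2.44 ± 0.368 TPM. Both were higher in goblet-enriched than in Lgr5-enriched cells (log2 fold changes 1.32 and 1.19, limma adjusted p = 0.00851 and 0.00529) and lower in enterocyte-enriched than in Lgr5-enriched cells (limma adjusted p = 0.00837 for Krt83 and 0.00719 for Krt85), where Krt7 itself was not called. The last call of Krt83 ended under quantile normalization (adjusted p = 0.0605). Krt12, the next coding gene beside Krt20, stood at 6.51, 0.704 and 0.470 TPM in enterocyte-enriched replicates and was listed at 0 in the other 6 libraries. It did not pass the filter, so it has no test.

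**Figure D5:**
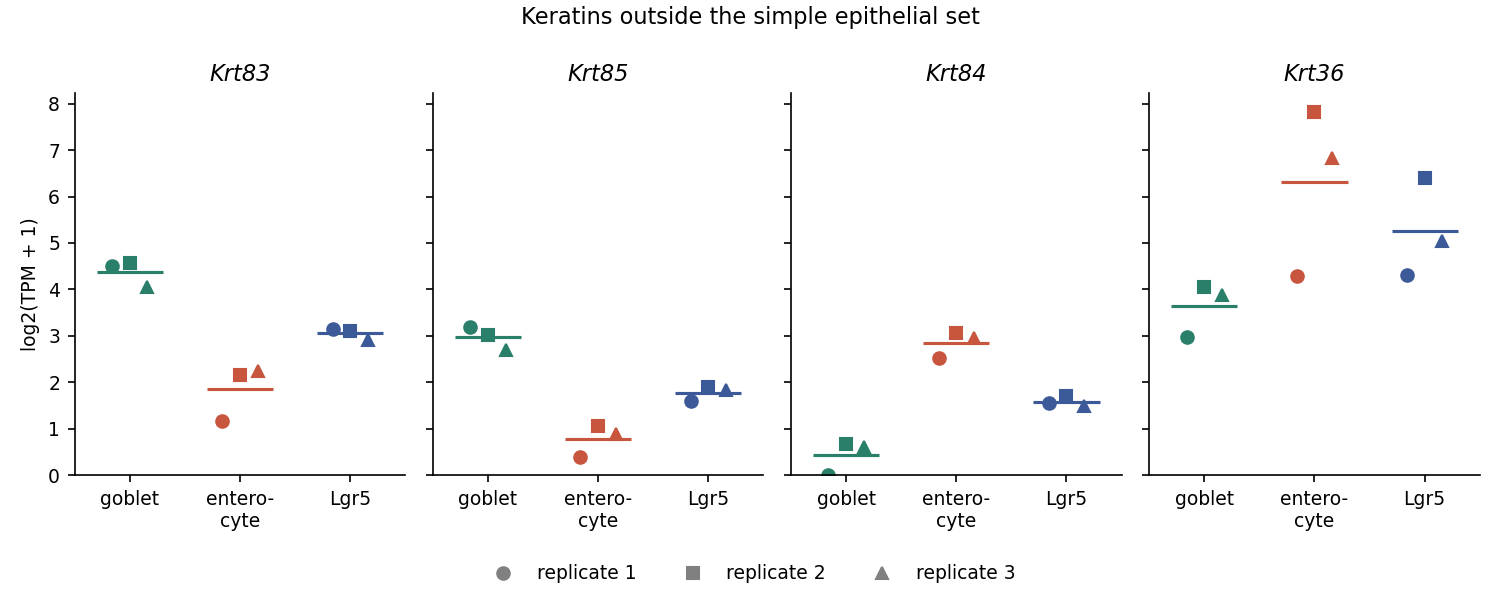
Levels of 4 keratins outside the simple epithelial set as log2(TPM + 1), in goblet-enriched, enterocyte-enriched and Lgr5-enriched libraries from left to right. Points are libraries, shaped by replicate number, and bars are the means of the 3 points. Krt83 and Krt85 are highest in goblet-enriched libraries, and Krt84 in enterocyte-enriched libraries. Krt36 spreads widely within the enterocyte-enriched and Lgr5-enriched populations.

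Keratins are anchored at desmosomes and hemidesmosomes, and 18 of 19 genes of these anchors and of the plakin linkers were tested. In goblet-enriched against Lgr5-enriched cells 0 rose and 6 fell, in enterocyte-enriched against Lgr5-enriched cells 5 rose and 3 fell, and in goblet-enriched against enterocyte-enriched cells 1 rose and 8 fell. The medians were -0.45, 0.20 and -0.64. Of all tested genes 10.7% rose and 23.6% fell in the first comparison, 12.0% and 37.6% in the second, 28.2% and 15.9% in the last. Envoplakin (Evpl), a plakin linker, averaged 4.20 ± 1.91, 47.3 ± 12.7 and 13.9 ± 5.46 TPM in goblet-enriched, enterocyte-enriched and Lgr5-enriched cells, the order of Krt19. It was called in all 3 comparisons (limma adjusted p = 0.0141, 0.00471 and 2.14e-04 in the same order of comparisons), the first ending without Lgr5-enriched replicate 3 (0.0557). Plectin (Plec), which ties keratins to other filaments, averaged 50.9 ± 22.2, 95.1 ± 20.1 and 42.8 ± 18.8 TPM. It was higher in enterocyte-enriched than in Lgr5-enriched cells (adjusted p = 0.0230), but not without enterocyte-enriched replicate 1 or 2, Lgr5-enriched replicate 1 or 3, or replicate 1 of all populations (highest 0.0814). The desmosome genes Jup, Pof1b and Perp were lower in goblet-enriched than in enterocyte-enriched cells, at 118 ± 31.8 against 258 ± 43.4, 71.8 ± 30.9 against 149 ± 13.4 and 184 ± 24.5 against 401 ± 76.4 TPM (limma adjusted p = 0.00836, 0.00554 and 8.40e-04).

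Desmoplakin (Dsp), the protein that holds keratins at desmosomes, averaged 130 ± 42.4 TPM in goblet-enriched, 262 ± 40.2 in enterocyte-enriched and 251 ± 77.9 in Lgr5-enriched cells. It was lower in goblet-enriched than in enterocyte-enriched cells (log2 fold change -1.05, limma adjusted p = 0.0129). Its call in goblet-enriched against Lgr5-enriched cells (adjusted p = 0.0256) ended under median-of-ratios scaling and without goblet-enriched replicate 1 or 3 or Lgr5-enriched replicate 2 or 3 (highest 0.0814). That of Jup (118 ± 31.8 against 210 ± 68.2 TPM, adjusted p = 0.0454) ended in 12 alternatives, leaving out any library but goblet-enriched replicate 2 and Lgr5-enriched replicate 1 among them. The hemidesmosome integrin Itga6 averaged 147 ± 24.2, 117 ± 5.40 and 262 ± 12.4 TPM and was lower in goblet-enriched and in enterocyte-enriched than in Lgr5-enriched cells (adjusted p = 0.00160 and 2.74e-04). Plakophilin 1 (Pkp1) was lower in enterocyte-enriched than in Lgr5-enriched cells, at 35.1 ± 7.83 against 65.6 ± 7.80 TPM (adjusted p = 0.00222).

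The anchor counts moved with the processing, and so did the counts over all tested genes. For goblet-enriched against Lgr5-enriched cells 2 anchor genes fell under median-of-ratios scaling or without Lgr5-enriched replicate 3. Leaving out goblet-enriched replicate 3 gave 3 lower, and leaving out replicate 1 of all populations gave 12. Over all tested genes 3039 fell in the main test and 1549 under that scaling. Without Lgr5-enriched replicate 3 it was 1571, without goblet-enriched replicate 3 it was 2278, and without replicate 1 of all populations 4176. For enterocyte-enriched against Lgr5-enriched cells median-of-ratios scaling gave 9 anchor genes higher and 2 lower. Leaving out enterocyte-enriched replicate 1 or 3 left 5 anchor calls and leaving out Lgr5-enriched replicate 1 or 3 left 4. Over all tested genes the scaling gave 3033 higher and 2534 lower in this comparison, against 1549 and 4847 in the main test.

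Of 23 proteins that bind or modify keratins, all tested, 0 rose and 8 fell in goblet-enriched against Lgr5-enriched cells. In enterocyte-enriched against Lgr5-enriched cells 1 rose and 10 fell, and in goblet-enriched against enterocyte-enriched cells 4 rose and 4 fell. The medians were -0.43, -0.40 and 0.05, close to those of all genes. The shares called over all genes were 34.3%, 49.6% and 44.1% in the same order of comparisons. Stratifin (Sfn), the 14-3-3 sigma adaptor, averaged 158 ± 30.5, 593 ± 142 and 374 ± 139 TPM in goblet-enriched, enterocyte-enriched and Lgr5-enriched cells. It was lower in goblet-enriched cells than in both others (limma adjusted p = 0.0101 against Lgr5-enriched and 6.85e-04 against enterocyte-enriched cells). Casp6, a caspase gene whose protein cuts Krt18 in dying cells, was higher in goblet-enriched than in enterocyte-enriched cells. It averaged 59.5 ± 1.28 TPM in goblet-enriched cells, against 35.7 ± 2.06 TPM in enterocyte-enriched cells (adjusted p = 7.04e-04).

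In the same list the transglutaminase gene Tgm2 averaged 5.78 ± 0.945, 8.39 ± 8.42 and 38.0 ± 16.1 TPM and was lower in goblet-enriched and in enterocyte-enriched than in Lgr5-enriched cells (limma adjusted p = 0.00922 and 0.00687). The atypical kinase gene Prkci was lower in goblet-enriched than in Lgr5-enriched cells, at 48.3 ± 9.70 against 113 ± 8.99 TPM (6.31e-04). Fbf1, a keratin-binding protein of the junctional complex, was lower in enterocyte-enriched than in Lgr5-enriched cells, at 8.12 ± 0.494 against 18.7 ± 2.67 TPM (0.00139), as was Nudc at 72.1 ± 17.0 against 166 ± 22.1 TPM (0.00123). Nudc was also called in goblet-enriched against Lgr5-enriched cells (99.3 ± 18.2 against 166 ± 22.1 TPM, 0.0199), a call that ended under median-of-ratios scaling and without goblet-enriched replicate 1, Lgr5-enriched replicate 3 or replicate 1 of all populations. Fam83h, which positions casein kinase on keratin filaments, was lower in goblet-enriched than in enterocyte-enriched cells (41.2 ± 11.5 against 91.8 ± 13.0 TPM, 0.0182), but not without goblet-enriched replicate 1 or enterocyte-enriched replicate 2 (highest 0.0601).

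These counts also depended on scaling and on single libraries. Median-of-ratios scaling gave 1 higher and 3 lower between goblet-enriched and Lgr5-enriched cells, 6 and 5 between enterocyte-enriched and Lgr5-enriched cells, and 1 and 5 between goblet-enriched and enterocyte-enriched cells. Over all tested genes that scaling gave 1839 and 1549, 3033 and 2534, and 2553 and 2751 in the same order. In the first comparison 5 of the list were called without goblet-enriched replicate 2, and 4 without goblet-enriched replicate 3 or Lgr5-enriched replicate 3. All tested genes gave 3216, 3455 and 2660 calls in these settings, in place of 4423. In the last comparison 5 of the list were called without enterocyte-enriched replicate 1 or 2. With the replicate number as a block 13 of the list were called, 8 higher and 5 lower, where the block called 7336 of the 12888 tested genes in place of 5687.

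Of 24 transcription factors linked to simple keratin genes, 22 were tested. In goblet-enriched against Lgr5-enriched cells 2 rose and 6 fell, in enterocyte-enriched against Lgr5-enriched cells 3 rose and 7 fell, and in goblet-enriched against enterocyte-enriched cells 4 rose and 7 fell. The medians were -0.17, -0.23 and 0.00. Among all tested genes 34.3%, 49.6% and 44.1% were called in the same order of comparisons. Klf4, a factor of goblet cell and surface cell differentiation, averaged 549 ± 26.4 TPM in goblet-enriched, 960 ± 114 in enterocyte-enriched and 232 ± 15.1 in Lgr5-enriched cells. It was higher than in Lgr5-enriched cells in both (log2 fold changes 1.24 and 2.04, limma adjusted p = 1.67e-04 and 3.89e-05). Hnf4a, a factor of enterocyte identity, averaged 228 ± 4.07, 534 ± 87.8 and 456 ± 69.4 TPM in goblet-enriched, enterocyte-enriched and Lgr5-enriched cells. It was lower in goblet-enriched than in enterocyte-enriched (limma adjusted p = 3.72e-04) and Lgr5-enriched cells (0.00179). Between enterocyte-enriched and Lgr5-enriched cells Hnf4a did not pass the test (limma adjusted p = 0.251). Its paralog Hnf4g averaged 16.2 ± 4.36, 30.0 ± 2.98 and 39.7 ± 2.73 TPM and was lower in goblet-enriched cells than in both others (limma adjusted p = 0.00108 against Lgr5-enriched and 0.00464 against enterocyte-enriched cells).

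The ETS factor gene Ehf averaged 711 ± 270, 216 ± 3.16 and 416 ± 20.0 TPM, the goblet, Lgr5, enterocyte order of Krt83. It was higher in goblet-enriched than in enterocyte-enriched cells (limma adjusted p = 4.44e-04) and lower in enterocyte-enriched than in Lgr5-enriched cells (0.00675), the second ending under median-of-ratios scaling (0.0989). Smad4, the shared mediator of BMP and TGF-beta signals, averaged 86.3 ± 9.24, 113 ± 7.47 and 212 ± 7.05 TPM and was lower than in Lgr5-enriched cells in both (adjusted p = 7.76e-05 and 3.95e-04). Trp53 was lower in enterocyte-enriched than in Lgr5-enriched cells, at 48.8 ± 18.2 against 209 ± 22.1 TPM (4.27e-04), and higher in goblet-enriched than in enterocyte-enriched cells, at 110 ± 25.3 against 48.8 ± 18.2 TPM (0.00782). Median-of-ratios scaling gave 7 higher and 4 lower in enterocyte-enriched against Lgr5-enriched cells, and 3033 and 2534 over all tested genes. In goblet-enriched against Lgr5-enriched cells 5 of these factors were called without Lgr5-enriched replicate 2 or 3. Without replicate 1 of all populations 13 were called. Over all tested genes these settings called 3364, 2660 and 5732, in place of 4423 in the main test. In goblet-enriched against enterocyte-enriched cells 7 of the factors were called without goblet-enriched replicate 2 or enterocyte-enriched replicate 1.

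Among 16 other intermediate filament genes, 6 were tested. In goblet-enriched against Lgr5-enriched cells 1 rose and 3 fell, in enterocyte-enriched against Lgr5-enriched cells 1 rose and 2 fell, and in goblet-enriched against enterocyte-enriched cells 2 rose and 1 fell. The background over all tested genes was 34.3%, 49.6% and 44.1% called. The B-type lamin Lmnb1, of the nuclear lamina, averaged 61.6 ± 7.80, 34.3 ± 6.91 and 151 ± 21.6 TPM and was called in all 3 comparisons (limma adjusted p = 8.40e-04, 1.29e-04 and 0.00468). Lmnb2 averaged 40.0 ± 5.19, 56.2 ± 5.37 and 88.4 ± 14.2 TPM and was called in all 3 as well (9.64e-04, 0.00893 and 0.0322). Its second call ended under median-of-ratios scaling (0.191), and its last without replicate 1 or 2 of the goblet-enriched or replicate 2 or 3 of the enterocyte-enriched population (highest 0.101). Syncoilin (Sync) was higher in goblet-enriched than in Lgr5-enriched cells, at 5.24 ± 1.87 against 0.298 ± 0.139 TPM (3.52e-04), and than in enterocyte-enriched cells, at 5.24 ± 1.87 against 1.01 ± 0.262 TPM (0.00131).

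Vim, the filament gene of mesenchymal cells, averaged 2.19 ± 1.99, 4.99 ± 1.54 and 6.16 ± 0.980 TPM in goblet-enriched, enterocyte-enriched and Lgr5-enriched cells. Its call in goblet-enriched against Lgr5-enriched cells (adjusted p = 0.0378) ended in 12 alternatives (highest 0.111), among them leaving out goblet-enriched replicate 1 or 2, enterocyte-enriched replicate 2 or any Lgr5-enriched library. Bfsp1, a filament gene best known from the lens, was called in enterocyte-enriched against Lgr5-enriched cells (12.1 ± 1.08 against 7.90 ± 0.842 TPM, 0.0399), and lost the call in 8 alternatives, leaving out goblet-enriched replicate 3 or any enterocyte-enriched or Lgr5-enriched library among them. The 10 stromal and endothelial markers summed to 1.03 to 6.16 TPM in goblet-enriched, 6.14 to 8.87 TPM in enterocyte-enriched and 8.96 to 9.33 TPM in Lgr5-enriched libraries, and the 4 mesothelial markers to at most 0.457 TPM in any library. For goblet-enriched against enterocyte-enriched cells 5 of the listed filament genes were called under median-of-ratios scaling, quantile normalization or no filter on low values. The first and second of these gave 2 higher and 3 lower. Over all tested genes they gave 2553 higher and 2751 lower, and 2890 higher and 2379 lower.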

How the data were processed

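RNA was measured in 9 poly-A libraries, 3 for each of 3 sorted populations. Per the labels' protocols, sorting removed dead cells and doublets, as well as cells bearing antigens of leukocytes or endothelium. Libraries were made with a stranded kit and run on either of 2 instruments, without saying which library went to which. Each entry of the deposited table is on a log2 scale from 1 TPM upward (log2 of TPM), and is TPM minus 1 for lower levels. Turned back, the authors' TPM values sum to 1000000 in each library. Cufflinks and mm10 are named in the submitters' processing notes. Not given in the sources used here: the aligner, the annotation and whether counting used strand. Krt7 and Krt8 overlap antisense or opposite-strand genes, and Krt8 has an annotated pseudogene, so reads could be shared.

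Reads were recovered by dividing each TPM by the value of 1 read in the gene (18386 of 18396 genes above 0 gave whole numbers in all libraries, 99.95%; tolerance 1e-06 of a read or 1e-09 of the count). They are the smallest numbers the values allow.

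The test was limma (version 3.58.1, under R 4.3.3) on log2(TPM + 1), with a mean-variance trend, all 9 libraries, 1 mean per population and no covariate. It took the 12888 genes that reached 1 TPM in 3 or more libraries. Tests were two-sided, with Benjamini-Hochberg adjusted p below 0.05 over all genes tested as the threshold, and the procedure was tested on simulated data. Fold changes on this scale understate the change of low genes. Folds in the text without "log2" are ratios of mean TPM. The members and gene lists were chosen with earlier results of these data known. All members are named, as are up to 4 called genes of each list and comparison with the largest log2 fold change, and the 3 genes most like each member. Some genes that this rule names are not reported here.

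Replicates come from 3 mice, per the series text. Deviations from the population mean correlated in every pair of libraries with the same replicate number (r = 0.19 to 0.60 over genes). The numbers may thus pair the libraries, although the sex-linked transcripts of enterocyte-enriched replicate 1 go against a shared animal. The main test did not use this pairing, which entered only the alternative with the replicate number as a block. Alternatives were no filter, a pseudocount of 0.1, median-of-ratios and quantile scaling, only the 6 libraries compared, the replicate number as a block, leaving out each library, and leaving out replicate 1 of all populations. Limma-voom on the recovered reads was added after the data were seen.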

Additional observations from a re-analysis of the deposited data

How the results depend on the processing

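Of 306 values of the 6 members in 3 comparisons under 17 alternatives, 285 kept their direction and their side of the threshold, 1 lost its call, 4 gained one and 16 changed sign, and the cause of these changes was not tested. The lost call was Krt8 in enterocyte-enriched against Lgr5-enriched cells under quantile normalization (0.91). Every sign change was of a difference that did not pass the limma test with no block. Of these, Krt23 in goblet-enriched against enterocyte-enriched cells was called with the replicate number as a block (limma adjusted p = 0.0343). In enterocyte-enriched against Lgr5-enriched cells, Krt7 (-0.18) became 0.23 under median-of-ratios scaling, Krt18 (-0.07) became 0.35 under it and 0.04 with limma-voom, and Krt23 (-0.24) became 0.15 with either scaling (median-of-ratios or quantile) and 0.10 with limma-voom. Leaving out single libraries gave -0.35 to 0.11 for Krt7, -0.15 to 0.05 for Krt18 and -0.79 to 0.42 for Krt23 there, -1.13 to 0.09 for Krt23 in goblet-enriched against enterocyte-enriched cells, and -1.72 to 0.10 for Krt20 in goblet-enriched against Lgr5-enriched cells. Without replicate 1 of all populations, Krt7 was at 0.04 in enterocyte-enriched against Lgr5-enriched cells and Krt20 at 0.36 in goblet-enriched against Lgr5-enriched cells.

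With the replicate number as a block, 4, 3 and 6 members were called in place of 3, 3 and 5, and 6357, 7891 and 7336 genes in place of 4423, 6396 and 5687. Krt23 was the member gained in both comparisons with goblet-enriched cells, and the block changed no other member's call. Leaving out 1 library gave 2660 to 4598 calls over all genes in goblet-enriched against Lgr5-enriched cells, the lowest without Lgr5-enriched replicate 3. The type I to type II ratio moved by less than 1 SD in every population when all keratin rows were used. Leaving out 1 of 3 libraries cannot move a mean by 1 SD, so it is no check of that ratio. Krt23 and the low Krt20 values rest on few reads, 21 at the lowest, so counting error weighs more on them than on the other members.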
